A study of Mus musculus with 6 samples.

Results

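The liver X receptors (LXRs) and genes of sterol efflux and HDL lipid transfer are described here as 8 genes. These are the receptors Nr1h3 and Nr1h2, the ATP-binding cassette (ABC) transporters Abca1, Abcg1, Abcg5 and Abcg8, the lipid transfer protein Pltp and the HDL receptor Scarb1. They were taken by gene symbol from a table of 45777 genes, and each symbol matched 1 row. The table came from RNA-seq of whole liver from 6 male C57BL/6 mice on a high-fat diet (HFD), 1 library per mouse. Littermate controls (LT, n = 3) were Fpn flox/flox, and hepatocyte-specific knockouts (Fpn-LKO, n = 3) were Alb-Cre; Fpn flox/flox, so that both groups carried 2 floxed alleles of Slc40a1, the ferroportin gene, and Cre was driven by the albumin promoter. The methods of the study give backcrossing onto C57BL/6J and a start of HFD at 8 weeks of age, while the age at tissue collection was not given in the sources used here. The comparison asks whether genotype moved the transcripts of these 8 genes in the fatty liver.

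LXRs are nuclear receptors that bind oxidised cholesterol (oxysterols) and act on DNA as a heterodimer with a retinoid X receptor (RXR). When sterol accumulates they switch on genes that move cholesterol to lipoproteins and bile, in the liver above all Abca1 and the Abcg5/Abcg8 pair, and they also raise Srebf1 and fatty acid synthesis. The SREBP2 pathway works the other way, switching on cholesterol synthesis and uptake when sterol is scarce. Nr1h3 encodes LXRα, the main form of liver, and Nr1h2 encodes LXRβ, which is made in most cells.

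The classical LXR element is a direct repeat of the half-site AGGTCA with 4 bases between the copies, called DR4. RefSeq promoter windows on GRCm38.p6, of 250 bases before and 50 bases after a start site, were available for 6 of the 8 genes, and Nr1h3 and Abcg8 had 2 windows each. With up to 3 of the 12 half-site letters allowed to differ, on either strand, 1 of these 8 windows held a match. It stood in Abca1, which lies on chromosome 4 from 53030789 to 53159988 on the minus strand. The match ran from 67 to 52 bases before the start site of that window, base 53159895. That start site lies inside the annotated Abca1 span, so the match lies within the annotated gene and not before its outer end. The Nr1h3 start sites used, bases 91195116 and 91195035, likewise lie inside the Nr1h3 span. Such matches occurred in 21.9% of 32851 promoter windows, so that the match describes this window and no more. The Abca1 stretch is shown for that match, which stands in capitals, and the Abcg5-Abcg8 stretch because these genes leave a shared interval in opposite directions. In the latter, capitals mark TATAAA read on the strand of Abcg5, letters that 13.6% of all windows held on either strand. The first capital lies 79 bases from the Abcg5 start, nearer the Abcg8 start at the other end. Whether these letters act for either gene was not tested. The Abca1 stretch holds the same letters in lower case.
Abca1, chr4:53159896-53159995, minus strand: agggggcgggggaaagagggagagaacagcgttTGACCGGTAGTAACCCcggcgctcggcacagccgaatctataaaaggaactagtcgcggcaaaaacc
Abcg5-Abcg8, chr17:84683012-84683120, plus strand: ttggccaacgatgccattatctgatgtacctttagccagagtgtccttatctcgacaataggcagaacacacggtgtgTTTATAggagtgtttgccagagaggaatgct
The RefSeq start of Abcg5 is base 84683011, just before the printed interval, and one of 2 RefSeq starts of Abcg8 is base 84683121, just after it, which leaves 109 bases between these starts. The other Abcg8 start, base 84676302, lies inside Abcg5. None of the Abcg5, Abcg8, Nr1h3, Nr1h2 and Pltp windows held a DR4 match at that tolerance, which says only that these letters were not in these windows.

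Library totals lay between 43086184 and 47778683 counts, and the 8 genes had from 266 to 18849 counts in a library, so that all 8 were among the 17274 genes tested. Counts are given below as CPM, counts divided by a library size scaled by the trimmed mean of M-values (TMM), with SD and n = 3 per genotype. Slc40a1 itself did not differ, with 153 ± 27.0 CPM for LT against 154 ± 18.7 for libraries that carry the Fpn-LKO label, a log2 fold change of 0.0073 with an adjusted p of 0.995. Gene-level counts pool all exons, so a transcript lacking only the floxed part would still be counted, and the genotype of these libraries therefore rests on their labels and Fpn-LKO below means the libraries so labelled. Hepatocyte markers dominated every library, at 75305 to 92614 CPM summed over 8 markers in LT and 77377 to 87890 in Fpn-LKO. Of 6 bile duct markers, Krt19, Krt7 and Cldn4 were at 0 in at least 1 library and Epcam, Sox9 and Spp1 were counted in all, with a sum over the latter of 84.4 CPM in LT replicate 3 and 12.4 to 29.8 CPM in the others. Of the pancreas markers, 5 of 7 were at 0 in all libraries. Endothelial, stellate cell and blood marker sums overlapped between the genotypes, with blood markers spanning 352 to 943 CPM in LT and 476 to 1244 CPM in Fpn-LKO. In bulk liver, fewer cells of a type and less RNA per cell cannot be told apart.

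None of the 8 genes passed the test between the genotypes. With edgeR's quasi-likelihood test and Benjamini-Hochberg adjustment over all tested genes, every adjusted p for them was 0.982 or above, where 4 of 17274 genes (0.0232%) were called at an adjusted p below 0.05. Those 4 calls fell to 0 when replicate number was added as a block or LT replicate 2 left out, and to 1 without LT replicate 1, LT replicate 3 or Fpn-LKO replicate 2. Before adjustment, 2 of the 8 had p below 0.05, Nr1h3 in the upward direction and Scarb1 in the downward direction, against 4.8% of all genes. The same 2 genes were the ones whose LT and Fpn-LKO libraries did not overlap, against 10.6% of all genes, and with 8 genes these counts are too small to be read against the background. The median log2 fold change of the 8 genes was 0.12, with 6 positive and 2 negative, beside -0.0040 over all tested genes. Across 15 alternative settings no member was called, and the smallest adjusted p any of them reached was 0.839.

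**Figure D1:**
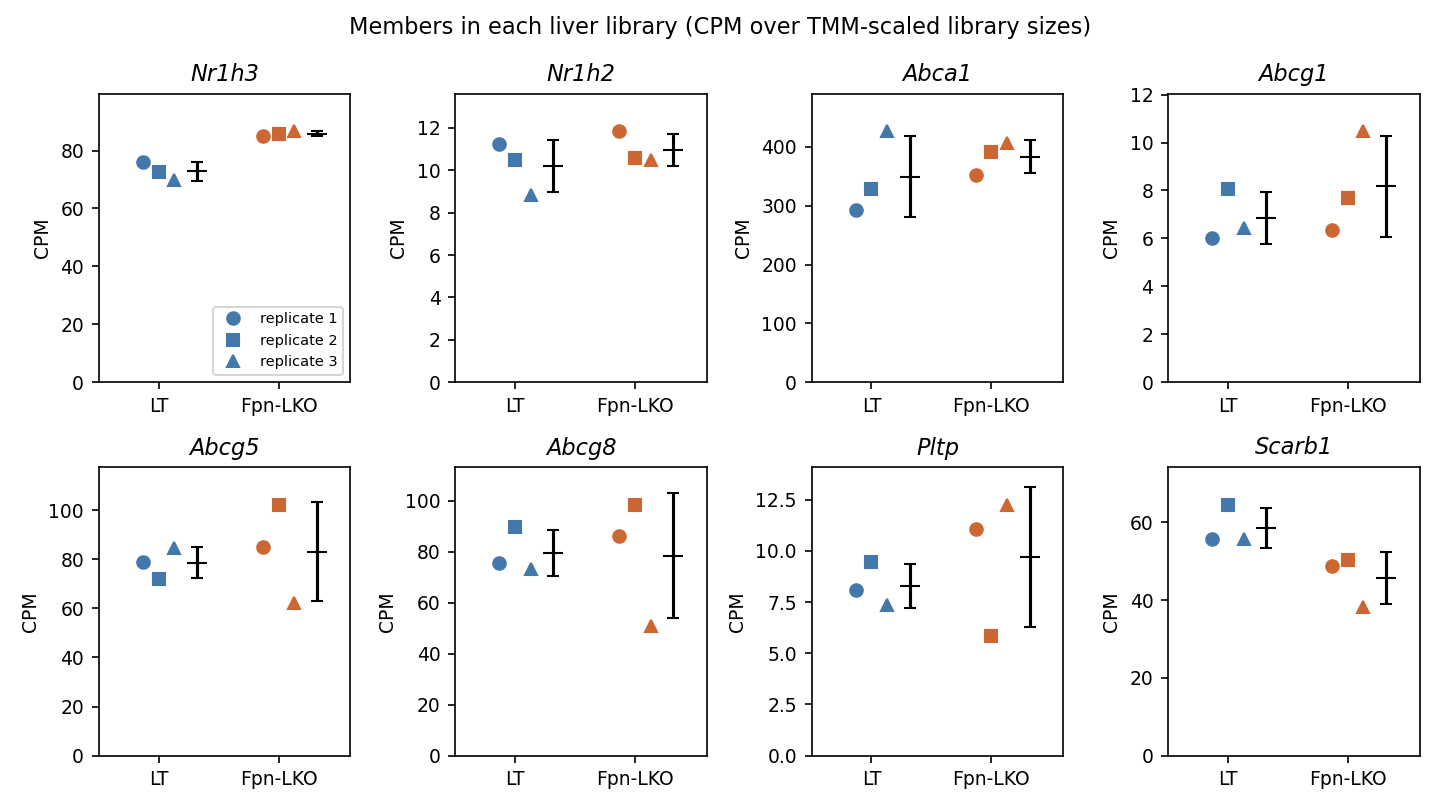
CPM of the 8 genes in each library, on linear axes from 0, with LT in blue and Fpn-LKO in orange, marker shape for replicate number, and the mean with SD (n = 3) in black beside each group. The genotypes separate for Nr1h3 and Scarb1 and overlap for the other 6 genes, and for Abcg5 and Abcg8 the highest and the lowest library are both Fpn-LKO.

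Nr1h3, which encodes LXRα, lies on chromosome 2 from 91184061 to 91202829 on the minus strand. Its CPM was 76.2, 72.7 and 69.8 for LT and 85.1, 85.9 and 86.7 for Fpn-LKO, in the order of replicates 1 to 3 that is kept below. All Fpn-LKO libraries were above all LT libraries, and the Fpn-LKO values were tightly grouped, with an SD of 0.823 CPM beside 3.22 CPM in LT. The log2 fold change was 0.24 ± 0.095 (SE), a difference of 17.8% with a 95% interval of 1.08% to 37.4%. Its unadjusted p was 0.0390 and its adjusted p 0.982 in edgeR's quasi-likelihood fit. A two-sided exact permutation test of the CPM gave p = 0.1, the smallest that 3 mice against 3 allow. The difference stayed positive in every setting, from 0.21 to 0.33, the upper end with limma on log2(TPM + 0.1). Its unadjusted p rose above 0.05 in most alternatives. These were edgeR's exactTest, the filter that kept all genes with at least 1 read, the replicate block and limma on both TPM scales. They also held the omission of any 1 library other than LT replicate 1. The gene's annotated span shares 18 bases with Acp2 on the opposite strand, which stood at 43.3 CPM in LT and 48.7 CPM in Fpn-LKO.

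Nr1h2, the LXRβ gene, lies on chromosome 7 from 44549616 to 44553968. The LT libraries held 11.2, 10.5 and 8.85 CPM of it, and those of Fpn-LKO 11.8, 10.6 and 10.5. LT replicate 3 was the lowest library, and the other 5 overlapped. The log2 fold change was 0.10 ± 0.15 (SE), with a 95% interval from -0.24 to 0.44 (adjusted p = 0.995, edgeR). It was 0.011 without LT replicate 3, 0.044 without Fpn-LKO replicate 1 and 0.18 without LT replicate 1. Per transcript length, Nr1h3 was the more abundant receptor in all 6 libraries, by 8.64 ± 0.846 times in LT and 9.19 ± 0.650 times in Fpn-LKO in TPM, the authors' length-scaled transcript measure. This ratio did not differ beyond the replicate spread (exact permutation p = 0.3, two-sided, n = 3 per genotype), and it was the first of 4 ratios tested, all with a Benjamini-Hochberg adjusted p of 0.8.

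The receptors' partners showed no called change. Of 11 RXR genes and coregulators tested, 3 were above 0 and 8 below it on the log2 scale, with a median of -0.088 and no unadjusted p below 0.05, and DESeq2 and exactTest also called none. Rxra, the main RXR of liver, was at 195 ± 26.1 CPM in LT and 172 ± 25.4 CPM in Fpn-LKO. Ncor1, a corepressor that sits on LXRs without ligand, was at 112 ± 5.83 and 112 ± 4.73 CPM. Ncoa6, a coactivator, had the smallest p of the list, with 7.41 ± 0.879 and 9.47 ± 1.39 CPM (unadjusted p = 0.0779, edgeR).

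Abca1 moves cholesterol and phospholipid onto apolipoprotein A-I, the first step of HDL formation, and it is the gene whose start is printed above. Its CPM was 293, 328 and 427 for LT, beside 352, 392 and 406 for Fpn-LKO. The highest value of all was in an LT library, replicate 3, so that the groups overlapped. That library also had the highest bile duct marker sum, almost all of it Spp1 at 83.1 CPM. Epcam and Sox9 were instead highest in Fpn-LKO replicate 2, at 0.835 and 1.26 CPM. In LT replicate 3 they stood at 0.435 and 0.846 CPM. Any part of the Spp1 level in the Abca1 value was not tested. Expressed as a log2 fold change the difference was 0.13 ± 0.17 (SE), with a 95% interval from -0.25 to 0.52 (adjusted p = 0.995, edgeR; exact permutation p = 0.5). Without LT replicate 3 it was 0.30 and without LT replicate 1 it was 0.023, so that the size rested on which control was kept while the sign did not.

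Abcg1 passes cholesterol to existing HDL and is strong in macrophages. Its gene lies on chromosome 17 from 31057694 to 31117984. In LT it was at 6.03, 8.06 and 6.43 CPM, and in Fpn-LKO at 6.33, 7.69 and 10.5 CPM. Only Fpn-LKO replicate 3 stood above the LT range. The log2 fold change of 0.26 ± 0.23 (SE) had a 95% interval from -0.27 to 0.78 (adjusted p = 0.985, edgeR; exact permutation p = 0.5) and shrank to 0.038 without that library. The same library also had the highest sum over 10 macrophage markers, 669 CPM, beside 301 and 375 CPM in the other Fpn-LKO libraries and 356 to 461 CPM in LT, with no marker at 0 in any library, and the part of this in the Abcg1 value was not tested. The ratio of Abca1 to Abcg1 in TPM was 29.5 ± 7.51 in LT and 27.5 ± 4.93 in Fpn-LKO (exact permutation p = 0.8, n = 3 per genotype), and on the log2 scale its difference of -0.086 turned to 0.11 without LT replicate 3 and to 0.066 without Fpn-LKO replicate 3.

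Abcg5 and Abcg8 are 2 parts of one transporter, which sends cholesterol and plant sterols into bile, and neither part works alone. They are neighbours on chromosome 17, Abcg5 from 84658174 to 84683011 on the minus strand and Abcg8 from 84676302 to 84700333 on the plus strand. Their annotated spans overlap by 6710 bases on opposite strands, since the Abcg8 span is counted from the start that lies inside Abcg5. Because the sources used here do not say whether counting used strand, reads in that stretch could have been given to either gene.

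The CPM of Abcg5 was 78.9, 72.1 and 84.7 for LT, beside 85.1, 102 and 62.2 for Fpn-LKO. For Abcg8 the LT libraries gave 75.4, 89.8 and 73.3 CPM and the Fpn-LKO libraries 86.0, 98.4 and 50.9 CPM. For both genes Fpn-LKO replicate 2 was the highest of the 6 libraries and Fpn-LKO replicate 3 the lowest, with the LT libraries between them. The SD was accordingly larger in Fpn-LKO, 20.1 beside 6.28 CPM for Abcg5 and 24.6 beside 8.997 CPM for Abcg8. The log2 fold change was 0.083 ± 0.18 (SE) for Abcg5, with a 95% interval from -0.34 to 0.51 (adjusted p = 0.995, edgeR; exact permutation p = 0.8). That of Abcg8 was -0.019 ± 0.23 (SE), with an interval from -0.56 to 0.53 (adjusted p = 0.995, edgeR; exact permutation p = 0.9). Leaving out Fpn-LKO replicate 2 turned Abcg5 to -0.093, and leaving out Fpn-LKO replicate 3 turned Abcg8 to 0.22, as did leaving out LT replicate 2, to 0.084, so that neither gene had a direction that held over the libraries.

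Per transcript length Abcg5 was above Abcg8 in all 6 libraries. Abcg8 stood at 0.677 ± 0.132 of Abcg5 in LT and at 0.615 ± 0.0653 in Fpn-LKO, in TPM (exact permutation p = 0.6, n = 3 per genotype). LT replicate 2 had the highest ratio, 0.824, without which the log2 difference turned from -0.13 to 0.024, and Fpn-LKO replicate 3 the lowest, 0.543. Of the other canalicular transporters, Abcb11, the bile salt pump, was at 405 ± 17.1 CPM in LT beside 474 ± 83.3 in Fpn-LKO. Abcb4, which brings phospholipid into bile, was at 545 ± 153 and 516 ± 86.4 CPM. None of the 4 genes of that list had an unadjusted p below 0.05 in edgeR's fit.

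Pltp moves phospholipid between lipoproteins and enlarges HDL, and Scarb1 takes cholesteryl ester from HDL into the hepatocyte. Pltp, on chromosome 2 from 164839518 to 164857708, had CPM of 8.11, 9.47 and 7.35 for LT, beside 11.1, 5.83 and 12.3 for Fpn-LKO. In Fpn-LKO 2 libraries were above the LT range and replicate 2 was below it. The log2 fold change was 0.23 ± 0.28 (SE), with a 95% interval from -0.42 to 0.87 (adjusted p = 0.995, edgeR; exact permutation p = 0.7). Without Fpn-LKO replicate 2 it was 0.49, with an unadjusted p of 0.0326 and an adjusted p of 0.999 (edgeR), whereas it was 0.024 without Fpn-LKO replicate 3, 0.12 without Fpn-LKO replicate 1 and 0.14 without LT replicate 3. Its span shares 1515 bases with Ctsa on the opposite strand, a lysosomal protease gene with far more reads, at 115 ± 11.98 CPM in LT and 134 ± 22.5 CPM in Fpn-LKO.

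Scarb1, on chromosome 5 from 125277087 to 125341094, was at 55.6, 64.6 and 55.8 CPM in LT. The Fpn-LKO libraries gave 48.8, 50.4 and 38.2 CPM, all below the lowest LT library. The log2 fold change was -0.36 ± 0.14 (SE), a difference of -21.9% with a 95% interval of -37.6% to -2.39%. It was the smallest unadjusted p of the 8 genes, 0.0341, and stood at 0.982 after adjustment in edgeR's quasi-likelihood fit, with an exact permutation p of 0.1. The sign was negative in every setting, from -0.43 to -0.24, and the unadjusted p rose above 0.05 without LT replicate 2 or Fpn-LKO replicate 3, with exactTest and with limma on TPM. The ratio of Pltp to Scarb1 was 0.196 ± 0.0121 in LT and 0.308 ± 0.144 in Fpn-LKO, in TPM, where Fpn-LKO replicate 2 at 0.160 lay below LT and the other 2 at 0.315 and 0.449 above it (exact permutation p = 0.4). The lncRNA Gm32701 lies within its span and was counted at 0.769 ± 0.275 CPM in LT and 1.20 ± 0.318 CPM in Fpn-LKO, and its strand was not matched, so that reads could have been given to either gene.

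**Figure D2:**
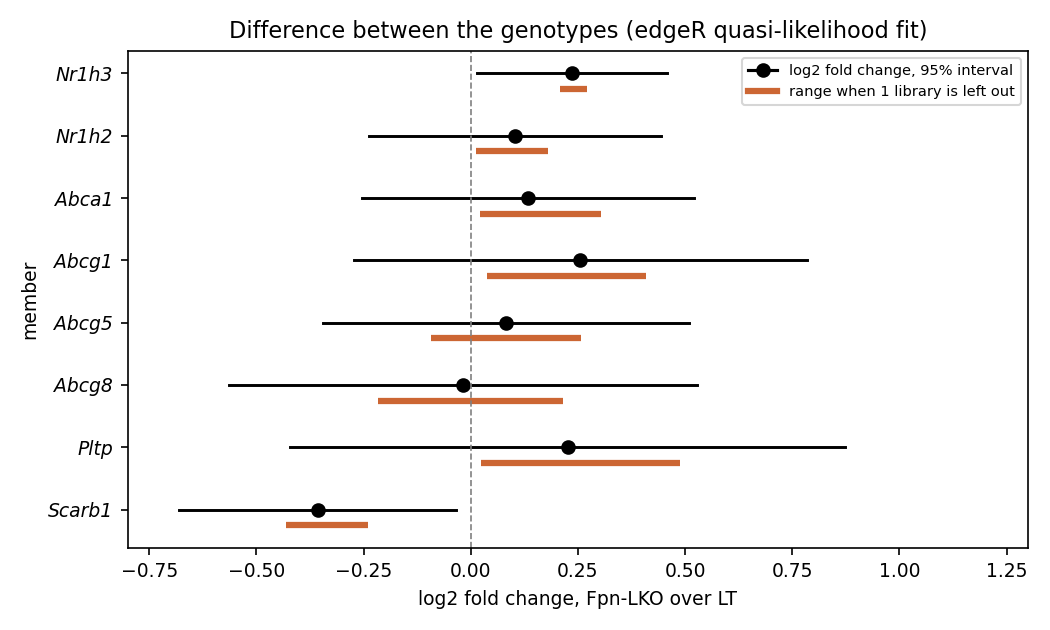
Log2 fold change of Fpn-LKO over LT for each gene (black point) with its 95% interval (black line, edgeR's quasi-likelihood fit) and the range of the estimate when 1 library at a time is left out (orange bar). The intervals of 6 genes span 0, those of Nr1h3 and Scarb1 do not before adjustment, and the orange bars cross 0 for Abcg5 and Abcg8.

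The 95% intervals were wide beside most of these differences. For Nr1h3 a rise of more than 37.4% lay outside the 95% interval, and for Abca1 a rise of more than 43.5%. For Abcg5 and Abcg8 the intervals ran from -21.2% to 42.3% and from -32.4% to 44.1%. Pltp and Abcg1 had the widest upper ends, 83.3% and 72.3%. An adjusted p near 1 does not show that the genotypes were alike.

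In TPM, which compares genes per transcript length, the 8 genes spanned a wide range over the 6 libraries. Nr1h3 averaged 58.8 ± 9.78 TPM, Abca1 46.7 ± 7.03, Abcg5 44.2 ± 10.4, Abcg8 28.5 ± 7.39 and Scarb1 27.2 ± 4.75 TPM (SD, n = 6 libraries). Nr1h2 averaged 6.62 ± 1.07 TPM, Pltp 6.49 ± 1.64 and Abcg1 1.69 ± 0.426 TPM. Of the neighbours in this order, Scarb1 and Nr1h2 were separated in all libraries without overlap, as were Pltp and Abcg1. Nr1h3 was above Abca1 in 5 of 6 libraries, Abca1 above Abcg5 in 3 and Abcg8 above Scarb1 in 2, so that these neighbours did not differ beyond their spread. Short structural RNAs such as Rn7s1 held 32.2% to 35.0% of TPM in LT and 41.1%, 16.1% and 20.2% in the Fpn-LKO libraries, which scales every other gene in a library up or down together. For this reason TPM were compared within libraries and the genotypes by CPM, except in the limma alternatives. Those compared TPM between the genotypes, and their median log2 fold change over all genes tested was 0.083 with log2(TPM + 1) and 0.097 with log2(TPM + 0.1).

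**Figure D3:**
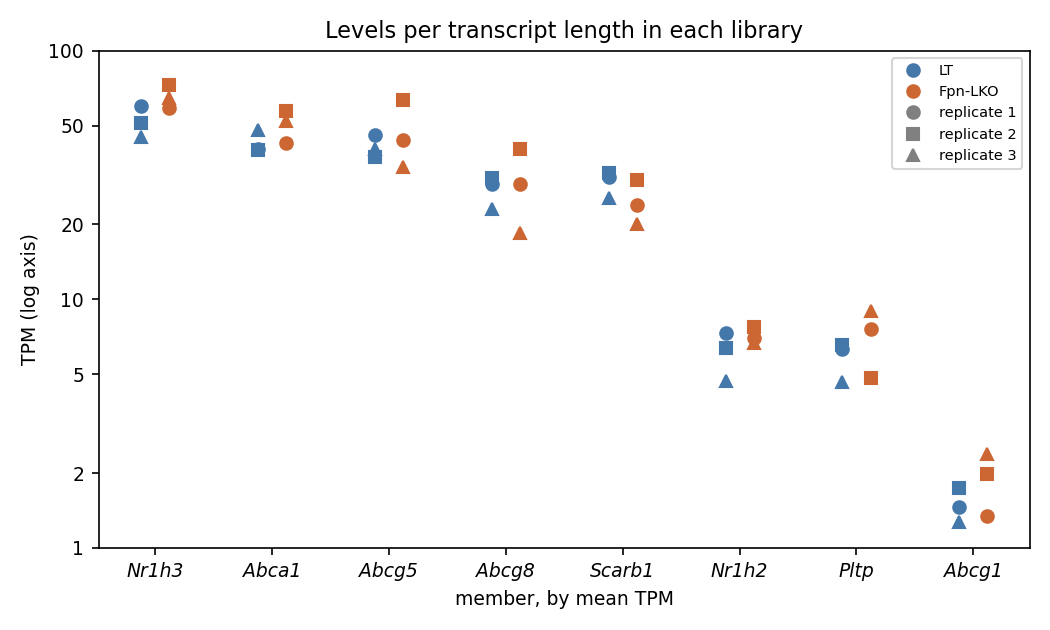
TPM of the 8 genes in each library on a log axis, ordered by mean, with LT in blue and Fpn-LKO in orange and marker shape for replicate number. A gap separates Scarb1 and the genes above it (18.5 to 72.8 TPM) from Nr1h2, Pltp and Abcg1 (1.26 to 8.98 TPM).

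Between libraries the 8 genes did not move as a block. Of the 28 pairs, 13 had a positive and 15 a negative Pearson correlation of log2 CPM over the 6 libraries, and none had a Benjamini-Hochberg adjusted p below 0.05 over the 28, the smallest being 0.7 for Pearson and 0.933 for Spearman (exact permutation tests). Abcg5 and Abcg8 had the highest value, r = 0.78 (exact permutation p = 0.0847) and rho = 0.60 (exact permutation p = 0.242). It rested on 2 libraries, since without Fpn-LKO replicates 2 and 3 it was r = -0.51 over the other 4. With the genotype means taken out of both genes the r of Abcg5 and Abcg8 was 0.81. The libraries left out were those farthest from the median of the first gene, which also narrows its range. Abcg5 and Pltp had the lowest, r = -0.81 (exact permutation p = 0.05) and rho = -0.66 (exact permutation p = 0.175). That r was -0.062 without the same 2 libraries and -0.87 with the genotype means taken out. Nr1h3 and Scarb1 had r = -0.78 (exact permutation p = 0.0403) and rho = -0.89 (exact permutation p = 0.0333). With the genotype means taken out of both, that r was -0.18, and without LT replicates 2 and 3 it was -0.71. With the genotype means taken out, some pairs lay farther from 0 than Abcg5 and Abcg8. Among them were Abcg8 with Scarb1 at 0.97 and Nr1h2 with Abca1 at -0.99. With log2(TPM + 1), Nr1h3 and Nr1h2 had an r of 0.89, above the 0.84 of Abcg5 and Abcg8. Within a genotype there were 3 libraries, too few for a correlation.

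**Figure D4:**
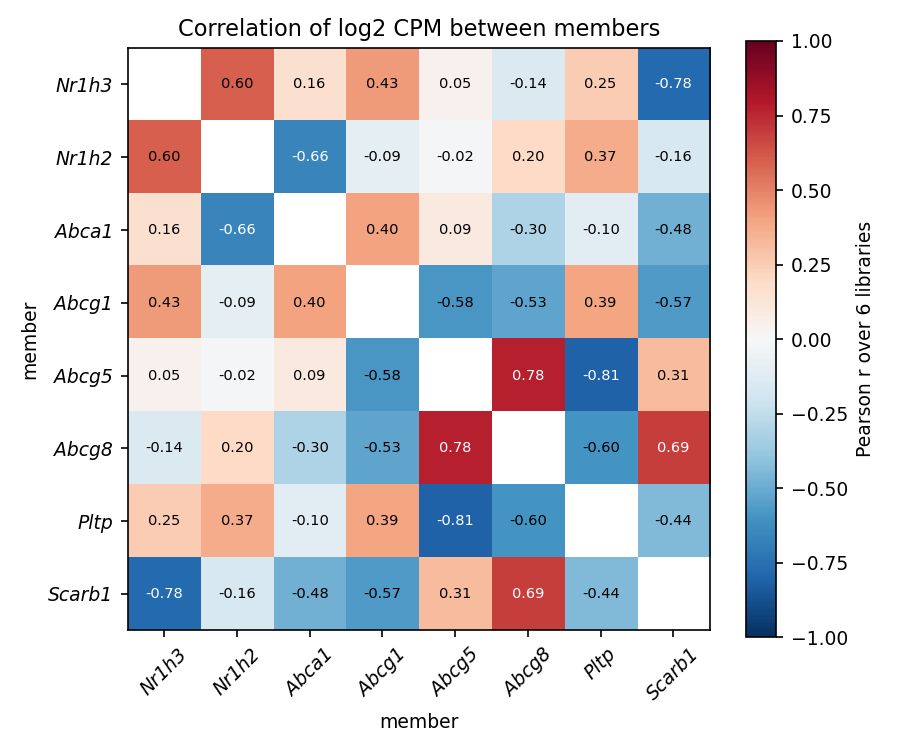
Pearson correlation of log2 CPM over 6 libraries for each pair of the 8 genes, from -1 (blue) to 1 (red), with r printed in each cell. Abcg5 with Abcg8 is the highest at 0.78 and Abcg5 with Pltp the lowest at -0.81, and none passed after adjustment over 28 pairs.

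The genes most like each member over the 6 libraries, among 6878 genes averaging at least 10 CPM, came from outside the group. They are given as a description, since the ranking takes the best of many genes over few points. For Nr1h3 they were Msantd4 (r = 0.98) and 4732465J04Rik (0.98), and for Nr1h2 they were Enpep (1.00) and Ttpa (0.99). Abca1 was closest to Smyd2 and Mettl7a1, both at 0.99, and Abcg1 to Ubr7 (0.99) and Eps15 (0.98). For Abcg5 they were Atp6v0c-ps2 and Polr3k, both at 0.99, while Abcg8 stood at place 187 of its list. For Abcg8 they were Ndst1 (0.99) and Cbx1 (0.98), with Abcg5 at place 296. Pltp was closest to Ezh1 and Pih1d1, both at 0.97, and Scarb1 to Trpm7 and Perp, both at 0.99. Between 8 and 33 genes exceeded an r of 0.95 for each member.

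Among 18 other LXR target genes, 9 were above and 9 below 0, with a median log2 fold change of -0.029. None was called by edgeR's quasi-likelihood test, DESeq2 or exactTest, and 3 had an unadjusted p below 0.05, all downward, against 2.19% of all genes in that direction. These were Acaca and Fasn, which make malonyl-CoA and fatty acid, and Cyp7a1, the rate-limiting enzyme of bile acid synthesis. Acaca had CPM of 85.1, 118 and 74.9 for LT, beside 58.5, 53.7 and 57.2 for Fpn-LKO, with a log2 fold change of -0.71. Fasn was at 115 ± 53.5 and 59.2 ± 12.5 CPM and Cyp7a1 at 288 ± 108 and 107 ± 74.8 CPM. Acaca and Fasn did not overlap between the genotypes, against 5.34% of all genes in that direction, while Cyp7a1 overlapped. Srebf1, the LXR target that drives those lipogenic genes, was at 59.8 ± 12.7 CPM in LT and 41.8 ± 13.2 CPM in Fpn-LKO (unadjusted p = 0.0819, edgeR). Scd1, also of this list, went the other way with the list's highest log2 fold change, 1.66. It was at 171 ± 110 CPM in LT and 542 ± 610 CPM in Fpn-LKO (unadjusted p = 0.140, edgeR). Its Fpn-LKO libraries held 1222, 357 and 46.1 CPM, so the groups overlapped. Apoe, the most abundant gene of the list and an acceptor of cellular cholesterol, was at 14180 ± 2815 CPM in LT beside 17124 ± 1577 in Fpn-LKO (unadjusted p = 0.324, edgeR).

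The lists around the efflux step held no gene called by edgeR, DESeq2 or exactTest, and their unadjusted counts stand beside 4.8% of all genes. Of 6 tested genes that make or break down LXR ligands, Cyp46a1, which makes 24-hydroxycholesterol, had an unadjusted p of 0.00808, with 0.466 ± 0.0968 CPM in LT and 1.62 ± 0.944 CPM in Fpn-LKO, but an adjusted p of 0.918 (edgeR). Cyp27a1, which makes 27-hydroxycholesterol, was at 405 ± 67.4 and 379 ± 30.3 CPM. In the HDL list, 0 of 7 genes had an unadjusted p below 0.05, and Apoa1, the acceptor of Abca1, was at 5643 ± 742 CPM in LT and 4808 ± 706 CPM in Fpn-LKO. Of 11 genes for sterol movement inside the cell, Stard4, a sterol carrier, was below LT in all Fpn-LKO libraries, at 42.96 ± 3.03 and 34.1 ± 3.94 CPM (unadjusted p = 0.0279 and adjusted p = 0.982, edgeR). Among the relatives of the transporters, 9 ABC subfamily A genes held Abca3, at 54.1 ± 18.4 and 111 ± 27.1 CPM, and Abca5, at 28.1 ± 7.09 and 18.9 ± 1.57 CPM, with an unadjusted p below 0.05, while the 5 subfamily G genes held none.

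The SREBP2 targets, which answer to sterol in the opposite direction from LXR targets, were below 0 in 7 of 7 genes, with a median log2 fold change of -0.38, and 4 did not overlap between the genotypes, against 50.6% of all genes below 0 and 5.34% not overlapping in that direction. No gene of this list passed edgeR's quasi-likelihood test after adjustment, 3 had an unadjusted p below 0.05 against 2.19% of all genes in that direction, and these 3 genes, Idi1, Sqle and Insig1, passed with both DESeq2 and exactTest, which called 0.417% and 0.365% of all genes. Insig1, which holds SREBPs in the endoplasmic reticulum, had CPM of 137, 125 and 158 for LT, beside 83.0, 81.3 and 83.0 for Fpn-LKO. Idi1, a mevalonate pathway enzyme, was at 37.1 ± 7.53 and 14.5 ± 3.92 CPM. The list was chosen with earlier results of these data known, so its counts are a description and no separate support. Beside these values the median of the 8 genes described here stood at 0.12, and whether the 2 groups of genes differ was not tested.

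**Figure D5:**
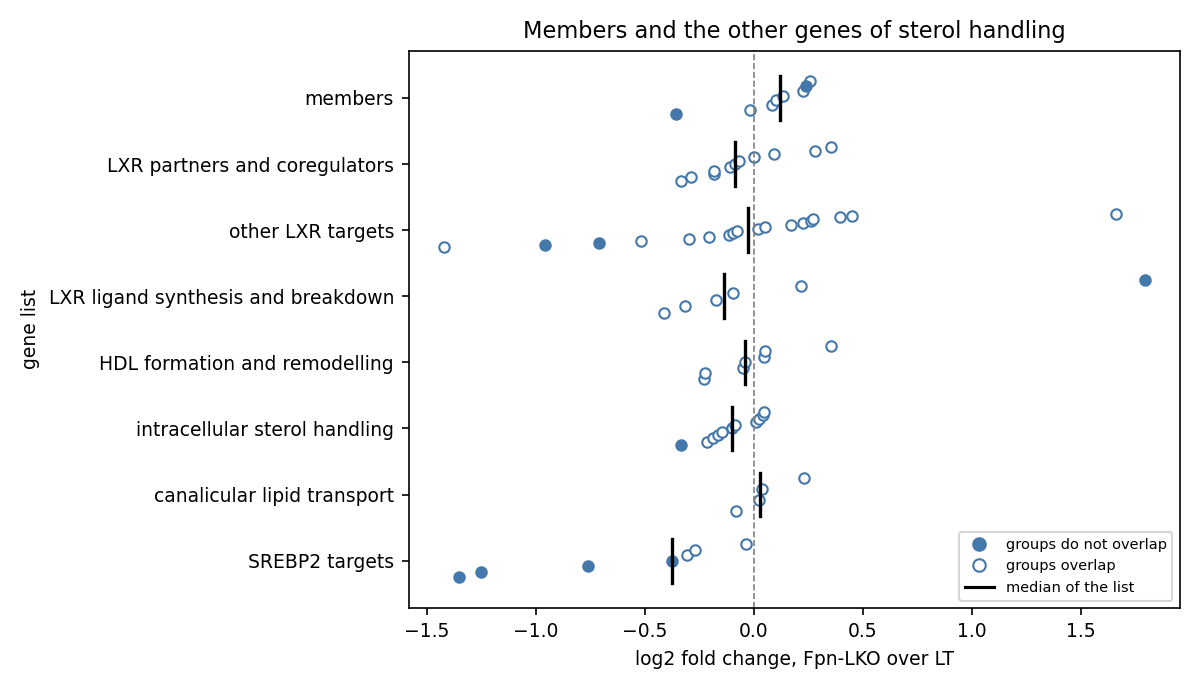
Log2 fold change of Fpn-LKO over LT for each tested gene of the 8 members and 7 related lists, with filled points for genes whose 3 LT and 3 Fpn-LKO libraries do not overlap and a black bar at each list's median. The members lie between -0.36 and 0.26, the other LXR targets scatter on both sides of 0, and the SREBP2 targets all lie below 0.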

How the data were processed

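The deposited table held, per the file headers, read counts, FPKM and TPM for each gene and library. Per the submitters' processing notes and the methods, the authors used bcl2fastq 2.20.0, FastQC 0.11.7, HISAT2 2.1.0, Bowtie2 2.3.4.1 and StringTie 2.1.3b on mm10. Labels and methods name different library kits (poly-A selected against rRNA-depleted total RNA), and whether counting used strand was not given in the sources used here. FPKM as deposited were used only as an alternative for the ratios.

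Counts were fitted with edgeR 4.0.16 (R 4.3.3), TMM scaling and the quasi-likelihood test after dropping genes at 0 in more than 1 library, as in the study's filter, and adjusted over all 17274 genes. Alternatives were RLE scaling, DESeq2 1.42.0, edgeR's exactTest, 2 other filters, robust fitting, a replicate block, limma 3.58.1 on log2(TPM + 1) and log2(TPM + 0.1), and each library left out. Scripts were tested on simulated data. P-values measure the spread between these mice. Replicate numbers came from the labels. Deviations of same-numbered LT and Fpn-LKO libraries had an r of 0.34, 0.11 and 0.24, although they were different mice, so the block counts as a pairing. Differently numbered libraries had an r from -0.30 to 0.086. Deviations sum to 0 within each genotype, so these values are not independent and do not show that the numbers mark pairs. All libraries were labelled as 1 batch, and none of the 15 pairs of libraries agreed within sampling noise. Chi-square per degree of freedom, over genes, was 125 between LT replicate 1 and Fpn-LKO replicate 1. It was 206 to 357 between either of them and the remaining libraries, and 65.8 to 161 among those. What set these libraries apart was not tested.

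The 8 genes and the gene lists were chosen with earlier results of these data known. Their counts beside the shares over all genes are therefore a description. Named list genes were at most 6 per list, from those of smallest p and of highest mean CPM. Gene coordinates and overlaps are RefSeq on GRCm38, promoters are RefSeq, and strands are from GENCODE vM21. One list item is not reported here and was left out of its list's counts.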

Additional observations from a re-analysis of the deposited data

How the results depend on the processing

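The number of genes called over all genes, 4 in the quasi-likelihood fit, moved to 72 with DESeq2 (49 up and 23 down), 63 with exactTest (44 up and 19 down), 7 with limma on either TPM scale and 0 with the replicate block. It ran from 0 to 6 when 1 library was left out, being 0 without LT replicate 2 and 1 without LT replicate 1, LT replicate 3 or Fpn-LKO replicate 2. The block changed no other call. None of the 8 genes was called in any of the 15 alternatives. Abcg8 turned to 0.023 and 0.022 (log2) with limma on log2(TPM + 1) and log2(TPM + 0.1). In those 2 fits the median over all genes tested was 0.083 and 0.097, above these Abcg8 values. With 1 library left out Abcg8 ran from -0.22 to 0.22, at 0.084 without LT replicate 2. Abcg5 ran from -0.093 to 0.26 in the same way. The Abcg8 to Abcg5 ratio ran from -0.24 to 0.024 (log2, Fpn-LKO minus LT), the latter without LT replicate 2. The Abca1 to Abcg1 ratio turned to 0.026 with log2(TPM + 1) and ran from -0.25 to 0.11, at 0.11 without LT replicate 3 and 0.066 without Fpn-LKO replicate 3. The cause of these shifts was not tested. The other 6 genes kept their direction in every alternative. Counts were lowest for Abcg1, Pltp and Nr1h2, at 266 to 569 per library.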
